A study of Mus musculus with 4 samples.

Results

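The miR-99, miR-100 and miR-125 families are groups of microRNAs (miRNAs), the short RNAs that pair with messenger RNAs and lower their output. All 5 members that the array carries under these names were followed on every array, namely mmu-miR-99a, mmu-miR-99b, mmu-miR-100, mmu-miR-125a-5p and mmu-miR-125b-5p (given here without the mouse prefix), out of 567 mouse miRNAs. They were chosen by name, although with earlier results of these data known. Members of a family share the bases that make the first contacts with a target, the seed. miR-99 and miR-100 genes lie close to let-7 and miR-125 genes in the genome and can be made from a shared primary transcript. The miR-99 and miR-100 family is known for targeting Mtor, the kinase of growth signaling, and miR-125 is the mammalian relative of the worm lin-4 and is known for targeting Lin28, which blocks let-7 maturation.

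RNA came from Sertoli cells, the somatic nurse cells of the seminiferous tubule, isolated from adult mice and pooled from 5 to 7 animals. The paper's methods give male B6129 mice aged 5 to 7 weeks. One array held RNA of control mice that had a sham treatment (Sham). Another pair held RNA of mice treated with flutamide, an antagonist of the androgen receptor, together with acyline, an antagonist of GnRH that lowers gonadotropins and hence testosterone (Flut+Acy). The last held RNA of mice given flutamide, acyline and testosterone (Flut+Acy+T). Sham and Flut+Acy+T had 1 array each, and the sources used here describe pools by group and do not give whether the Flut+Acy pair held separate pools. p-values therefore measure only the spread between the Flut+Acy arrays, which may be technical. In RNA from a pool of cells, fewer cells of a type and less RNA per cell cannot be told apart.

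The mature sequences are shown because the seed defines each family and because the members differ by few bases. All 5 members were matched by name to RefSeq on GRCm38.p6. They are written from the 5′ end, with the seed (bases 2 to 8) in capitals and the rest in lower case. The miR-99 and miR-100 family is followed by the miR-125 family.
miR-99a: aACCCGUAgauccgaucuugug
miR-100: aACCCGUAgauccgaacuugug
miR-99b: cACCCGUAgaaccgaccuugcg
miR-125a-5p: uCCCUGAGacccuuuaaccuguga
miR-125b-5p: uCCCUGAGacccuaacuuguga

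Counted from 1 at the 5′ end, miR-99a and miR-100 differed by 1 substitution, U16A. From miR-99a to miR-99b there were 4, at A1C, U11A, U16C and U21C. The miR-125 members shared their first 13 bases and were 3 single-base edits apart. Signals of members this alike may be uncertain, since RNA of one could bind a probe of the other. The array had 2 probes for each member, with 10 spots each. The probes paired with 19 and 18 bases of miR-99a, miR-100 and miR-125a-5p, with 17 and 16 bases of miR-125b-5p and with 16 and 15 bases of miR-99b. Base 16, where miR-99a and miR-100 differ, lies within the stretch that both of their probes must cover.

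The genes formed 3 clusters, all on the plus strand of GRCm38.p6. On chromosome 16, miR-99a (chr16:77598940-77598961) was followed by let-7c and by a copy of miR-125b-5p (chr16:77646279-77646300), with a span of 47408 bases and no annotated gene spanning it. On chromosome 9, miR-100 (chr9:41531437-41531458), let-7a and the other copy of miR-125b-5p (chr9:41581940-41581961) spanned 50578 bases inside the long noncoding RNA gene Mir100hg. On chromosome 17, miR-99b (chr17:17830194-17830215), let-7e and miR-125a-5p (chr17:17830817-17830840) lay within 692 bases inside the protein-coding gene Spaca6. Mature miR-125b-5p has the same sequence from both copies, so its signal cannot be assigned to a chromosome.

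The values were total signals of the scanner software, which combine a miRNA's spots after background subtraction and come with an error and a flag for detection. A total signal depends on the probe as well as on the RNA, so levels are compared only between arrays for the same miRNA. All 5 members were detected in Sham and in both Flut+Acy replicates, and all but miR-99b were detected on Flut+Acy+T. The arrays differed as a whole. The positive signals of mouse miRNAs, detected or not and with negative ones left out, summed to 57940 units for Sham, 139602 and 161460 for the Flut+Acy pair and 201919 for Flut+Acy+T. On the last of these the negative-control spots had an SD of 1326 units, against 2.72 to 7.45 on the other arrays, with no spot left out. There 535 of 12493 spots were marked nonuniform, against 0 to 4 on the other arrays, and 102 mouse miRNAs were detected, against 193 to 275.

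Before any normalization, every member was brighter in Flut+Acy, on both arrays, than on Sham. miR-99a gave 657 units on Sham (software error 58.99), 1075 (93.8) and 1149 (97.6) in the Flut+Acy pair and 1474 (179) on Flut+Acy+T. miR-100 gave 104 units (8.91) on Sham, 230 (19.4) and 289 (24.4) in the Flut+Acy pair and 444 (129) on Flut+Acy+T. For both, Sham was lowest and Flut+Acy+T highest, and the gap from Sham to the Flut+Acy arrays was wider than the gap between these, although for miR-100 the Flut+Acy+T value had an error of 29.0%. miR-99b gave 23.2 units (3.07) for Sham and 58.0 (5.27) and 78.6 (7.24) on Flut+Acy. On Flut+Acy+T it was not detected, with -12.7 units and an error of 123, and the lowest signal that this array called detected was 238 units, above every miR-99b signal on the other arrays.

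Both miR-125 members had the same order of arrays. miR-125a-5p gave 86.0 units (7.70) on Sham, 167 (14.8) and 223 (19.3) in the Flut+Acy pair and 461 (129) on Flut+Acy+T. miR-125b-5p gave 2366 units (220) on Sham, 3807 (355) and 4837 (447) in the Flut+Acy pair and 6490 (612) on Flut+Acy+T. Both Flut+Acy arrays were brighter than Sham for each, where 187 of the 189 miRNAs detected on Sham and Flut+Acy were brighter in the Flut+Acy mean. The Flut+Acy arrays lay 1.61- and 2.04-fold above Sham for miR-125b-5p and 1.95- and 2.59-fold above it for miR-125a-5p.

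**Figure D1:**
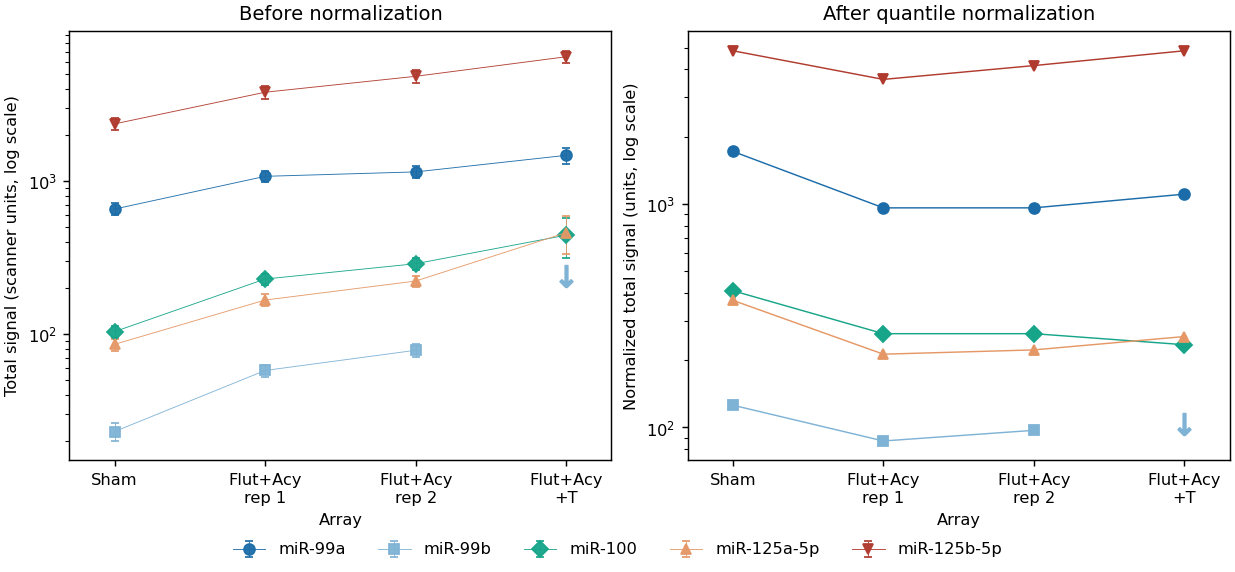
Signals of the 5 members on the 4 arrays, before normalization (left, scanner units, bars show the software error) and after quantile normalization (right), both on log axes. Lines join the points of 1 miRNA, heights of different miRNAs cannot be compared, and arrows mark the lowest detected signal on Flut+Acy+T, where miR-99b was not detected. All 5 lay above Sham on both Flut+Acy arrays on the left and below it on the right.

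The spots behind these totals varied by array. The coefficient of variation over a probe's 10 spots was 7.27 to 31.1% on Sham, 10.7 to 19.0% on Flut+Acy replicate 1, 2.99 to 13.3% on Flut+Acy replicate 2 and 3.95 to 81.3% on Flut+Acy+T, there without the 1 probe of miR-99b whose mean was below 0. Of the members' 100 spots, 90 were well above background on Sham, 100 on each Flut+Acy array and 34 on Flut+Acy+T. The 34 were all 20 spots of miR-125b-5p, the 10 spots of the longer miR-99a probe, 3 of miR-100 and 1 of miR-125a-5p. The Flut+Acy+T values of miR-100 and miR-125a-5p thus rest on few such spots, and 1 spot of each was marked nonuniform.

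Each member's probes gave similar rises from Sham to Flut+Acy. All 10 probes were brighter on both Flut+Acy arrays. The log2 difference before normalization was 0.74 for the longer and 0.85 for the shorter probe of miR-99a, and 1.35 and 1.13 for those of miR-100. The widest gap between the probes of a member was 0.22, at miR-100, and the narrowest was 0.03, at miR-125b-5p.

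Against other miRNAs, these rises were small or average. Over the 189 miRNAs that Sham and each Flut+Acy array detected, the median log2 difference before normalization was 1.54, with quartiles of 0.91 and 2.37, and 187 of the 189 were brighter in Flut+Acy. miR-99a rose by 0.76, miR-125b-5p by 0.86, miR-125a-5p by 1.17, miR-100 by 1.31 and miR-99b by 1.54. Of the 189 miRNAs, 20.6% had a smaller difference than miR-99a, 23.8% than miR-125b-5p, 34.9% than miR-125a-5p, 40.2% than miR-100 and 49.7% than miR-99b. miR-99b was itself the median.

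The difference before normalization also fell with the signal on Sham across all miRNAs. Split by Sham signal into 4 bins of 47 or 48, the 189 miRNAs had medians of 1.86, 1.77, 1.47 and 1.02 from the dimmest to the brightest bin. miR-99b (1.54) was in the second of these, miR-100 (1.31) and miR-125a-5p (1.17) in the third, and miR-99a (0.76) and miR-125b-5p (0.86) in the brightest. All 5 were below the median of their own bin, and all lay between its quartiles. Since the bin uses the Sham value that also enters the difference, this is a description without a test.

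**Figure D2:**
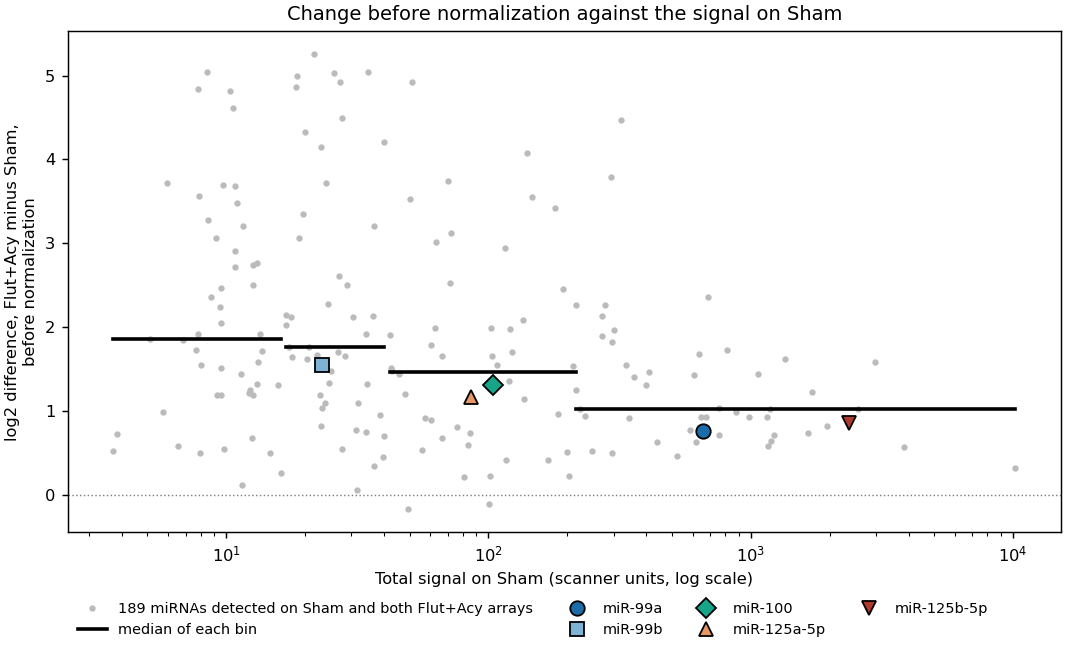
Log2 difference between Flut+Acy and Sham before normalization (vertical axis) against the total signal on Sham (horizontal axis, scanner units, log scale) for 189 miRNAs. Grey points are single miRNAs, black lines the median of each of 4 bins of Sham signal and large symbols the members, which all lay below the line of their bin.

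With quantile normalization, which gives every array the same set of values and is the normalization named in the methods, all 5 members were lower in Flut+Acy than in Sham. All 5 were instead higher without normalization. For miR-99a, miR-100, miR-125a-5p and miR-125b-5p this was the only one of 9 alternatives with a higher value, while miR-99b was also higher after scaling to the 75th percentile of miRNAs that every array detected (0.19) or to summed signal (0.17). miR-99a had normalized signals of 1716 units in Sham and 959 in each Flut+Acy replicate, a log2 difference of -0.84 (limma adjusted p = 0.00686). miR-100 had 409 units for Sham and 263 on each Flut+Acy array, a log2 difference of -0.64 (limma adjusted p = 0.0086). Both held the same rank on the Flut+Acy arrays, so quantile normalization gave them equal values and a spread of 0, and their standard error of 0.01 came from the prior of the fit.

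In the miR-125 family, miR-125a-5p had 370 normalized units in Sham and 213 and 222 in the Flut+Acy pair, a log2 difference of -0.77 (SE 0.05, limma adjusted p = 0.0298). miR-125b-5p had 4835 units for Sham and 3600 and 4151 in the Flut+Acy pair, a log2 difference of -0.32 (SE 0.15, limma adjusted p = 0.249). miR-99b had 126 units for Sham and 87.0 and 97.1 in the Flut+Acy pair, a log2 difference of -0.45 (SE 0.11, limma adjusted p = 0.130). The differences of miR-125b-5p and miR-99b did not pass the test.

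With the 75th percentile of miRNAs that every array detected and with summed signal, miR-99a remained called lower, at -0.59 and -0.62. miR-100 was then at -0.04 and -0.07 and miR-125a-5p at -0.18 and -0.21, and neither was called. With the 75th percentile over all mouse miRNAs the values were larger, and miR-125b-5p reached -1.32 and was called lower, whereas miR-125a-5p, at -1.01, was not called.

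In all, limma called 3 of the 5 members lower in Flut+Acy, where 54% of the 298 miRNAs tested were called, 28.5% lower and 25.5% higher. No member differed by 2-fold, which 17.8% of the miRNAs tested did downward and 21.5% upward. The median log2 difference was -0.64 over the members and -0.15 over all miRNAs tested. That median moved with the scaling, to -0.31 with the 75th percentile over all mouse miRNAs, 0.35 with the 75th percentile of miRNAs that every array detected, 0.33 with summed signal and 1.68 without normalization. Without normalization limma called 4 of the 5 higher in Flut+Acy, all but miR-125b-5p, where it called 73.2% of all miRNAs tested higher and 0% lower.

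Relative to the median of the same 189 miRNAs, the differences do not depend on a common factor per array. On any linear scaling miR-99a was 0.79 below this median on the log2 scale, miR-125b-5p 0.68, miR-125a-5p 0.38 and miR-100 0.24 below it, and miR-99b was at it. After quantile normalization, which is not linear, the values relative to the median were -0.47 for miR-99a, -0.39 for miR-125a-5p, -0.26 for miR-100, -0.08 for miR-99b and 0.05 for miR-125b-5p. miR-99a was thus the lowest of the 5 both ways, whereas miR-125b-5p moved from below the median to slightly above it.

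**Figure D3:**
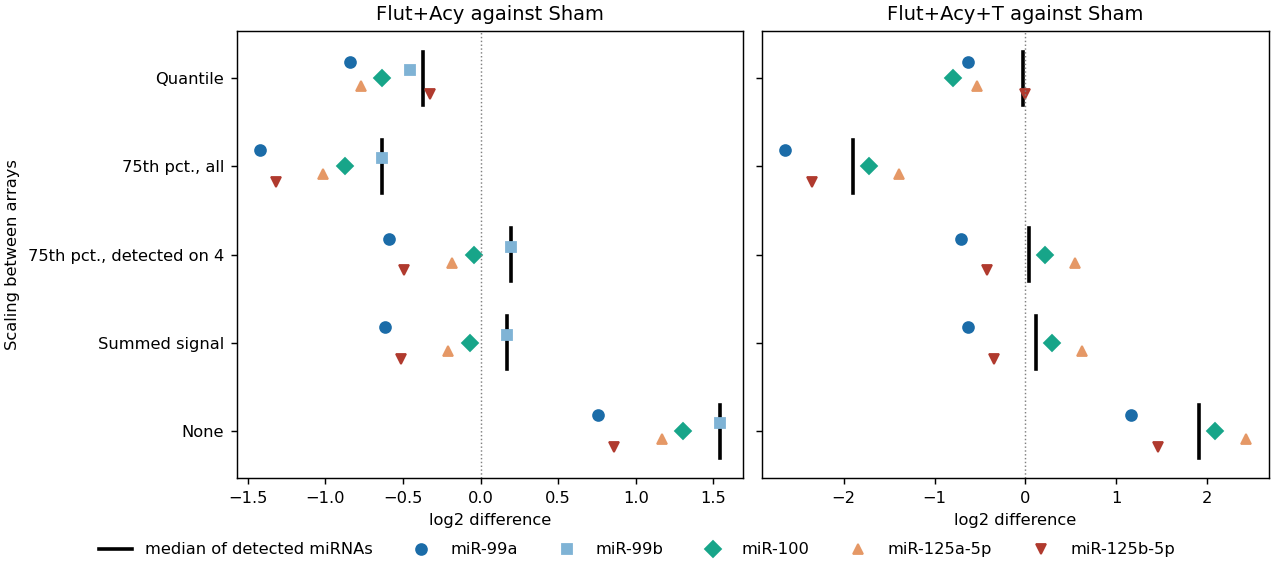
Log2 differences of the members from Sham in Flut+Acy (left) and Flut+Acy+T (right) under 5 scalings between arrays, from quantile normalization at the top to none at the bottom. Symbols are members, black bars the median of the miRNAs detected on both sides (189 left, 76 right), and the dotted line is no difference. The members stayed in the same places relative to the bar under the 4 linear scalings while the whole set moved across 0, and their places differed under quantile normalization.

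Testosterone replacement was compared with Flut+Acy to ask whether the members moved back toward Sham. After quantile normalization miR-99a was higher in Flut+Acy+T (1105 units) than in Flut+Acy by 0.20 on the log2 scale (limma adjusted p = 0.0114), but lower with scaling to the 75th percentile of miRNAs that every array detected (-0.12) or of the whole mouse set (-1.22), with summed signal (-0.02) and in the deposited table (-0.48). miR-100 was lower (235 units) by -0.16 (limma adjusted p = 0.0141), but higher with the 75th percentile of miRNAs that every array detected (0.26), summed signal (0.36) and no normalization (0.79). Neither direction held over the scalings, and for both the Flut+Acy spread was 0.

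miR-125a-5p had 255 normalized units in Flut+Acy+T, a log2 difference from Flut+Acy of 0.23 (SE 0.05, limma adjusted p = 0.0830). miR-125b-5p had 4835 units, a difference of 0.32 (SE 0.15, limma adjusted p = 0.229). These did not pass the test, and both turned negative with the 75th percentile over all mouse miRNAs (-0.37 and -1.03). miR-125a-5p was higher under the other 7 of 8 alternatives and called higher in 4 of them, without normalization (1.26), with summed signal (0.83), with the mean of spot signals (0.50) and with normexp background correction (0.22). For miR-99b, undetected on Flut+Acy+T, no fold against Flut+Acy can be given, since its normalized mean in Flut+Acy (92.0) was below the lowest detected value of the Flut+Acy+T array (103.5). The fit set miR-99b at the floor of 5.46 units there and called it lower (limma adjusted p = 0.00964), a call that rests on the floor.

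With miR-99b included, 3 of 5 members were called between Flut+Acy+T and Flut+Acy, 1 higher and 2 lower, where 75.2% of the miRNAs tested were called, 21.5% higher and 53.7% lower. The members' median log2 difference was 0.20 and that over all miRNAs tested was -1.08, a value that holds many miRNAs undetected on Flut+Acy+T. Among the 76 miRNAs detected on all arrays the median was 0.13. On linear scalings miR-125a-5p lay 0.73 above the median of these 76, miR-100 0.25 above, miR-125b-5p 0.07 above and miR-99a 0.12 below it.

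Between Flut+Acy+T and Sham, limma called 4 of 5 members lower after quantile normalization, where 65.8% of the miRNAs tested were called, 48.3% lower and 17.4% higher. The log2 difference was -0.63 for miR-99a (limma adjusted p = 0.00597), -0.80 for miR-100 (limma adjusted p = 0.00529) and -0.54 for miR-125a-5p (limma adjusted p = 0.0410). Without normalization these were 1.16, 2.09 and 2.42, all higher, and miR-100 and miR-125a-5p were also higher with the 75th percentile of miRNAs that every array detected (0.22 and 0.55) and with summed signal (0.29 and 0.62). miR-99b was the other call (limma adjusted p = 0.0125), which also rests on the floor. After quantile normalization the miR-99b signal on Sham was 1.22-fold the lowest detected value of Flut+Acy+T. This sets no lower bound on a fold, since undetected miRNAs could exceed that value. Before normalization undetected miR-449a gave 362 units on Flut+Acy+T, above the lowest detected signal of 238. The miR-99b signal on Sham was then below that lowest signal, so no fold can be given. miR-125b-5p held the same rank on Sham and Flut+Acy+T and so had the same normalized value, while its signal before normalization was 2.74-fold higher on Flut+Acy+T. It was called higher without normalization (1.46) and lower with the 75th percentile over all mouse miRNAs (-2.35).

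Ratios between members within an array do not change with a common factor per array. These were calculated from total signals for 6 pairs, without a test, and show unequal change between the members of a pair. They do not remove a trend with signal. Over the 189 miRNAs the median rise from Sham to Flut+Acy was 1.86 in the dimmest bin and 1.02 in the brightest. Where a ratio moved from Sham to Flut+Acy by more than the Flut+Acy SD, the member with the lower Sham signal rose more. Whether the ratios changed beyond this trend was not tested. For the chromosome 16 pair, miR-99a over miR-125b-5p, the log2 ratio was -1.85 on Sham, -1.82 and -2.07 in the Flut+Acy pair and -2.14 on Flut+Acy+T. The Flut+Acy mean differed from Sham by -0.10, less than the SD of 0.18 between the Flut+Acy arrays (n = 2), and with Flut+Acy replicate 1 alone the difference was 0.02. It was larger, at -0.36, from the mean of spot signals and, at -0.38, with normexp background correction.

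For the chromosome 9 pair, miR-100 over miR-125b-5p, the log2 ratio was -4.51 on Sham, -4.05 and -4.07 in the Flut+Acy pair and -3.87 on Flut+Acy+T. The rise of 0.45 from Sham to Flut+Acy was larger than the SD of 0.0099 between the Flut+Acy arrays (n = 2), but it was -0.08 with normexp background correction and -0.14 in the deposited table. For the chromosome 17 pair, miR-99b over miR-125a-5p, the ratio was -1.89 on Sham and -1.53 and -1.50 in the Flut+Acy pair. This rise of 0.38 (SD 0.02 between Flut+Acy arrays, n = 2) turned to -0.19 with normexp. In the software's total signals the miR-99 or miR-100 member thus rose more than its miR-125 neighbor in both pairs, a direction that normexp turned.

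Ratios within the families were as follows. For miR-99a over miR-100, which differ by 1 base, the log2 ratio was 2.66 on Sham, 2.23 and 1.99 in the Flut+Acy pair and 1.73 on Flut+Acy+T. The change of -0.55 from Sham to Flut+Acy (SD 0.17 between Flut+Acy arrays, n = 2) was larger than the spread of the pair, whereas the -0.93 from Sham to Flut+Acy+T was 0.16 in the deposited table. The Sham to Flut+Acy difference was smaller with normexp (-0.30) and from the shorter probes alone (-0.28), and it was close to 0 in the deposited table (-0.0076).

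For miR-99a over miR-99b the log2 ratio was 4.83 on Sham and 4.21 and 3.87 in the Flut+Acy pair, a change of -0.79 (SD 0.24, n = 2) that became 0.02 with normexp and 0.12 in the deposited table. For miR-125b-5p over miR-125a-5p it was 4.78 on Sham, 4.51 and 4.44 in the Flut+Acy pair and 3.82 on Flut+Acy+T. The change of -0.31 from Sham to Flut+Acy (SD 0.05, n = 2) became 0.21 with normexp and 0.39 in the deposited table. The change of -0.97 from Sham to Flut+Acy+T became 0.65 in the deposited table, and miR-125a-5p had 1 spot well above background on that array.

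**Figure D4:**
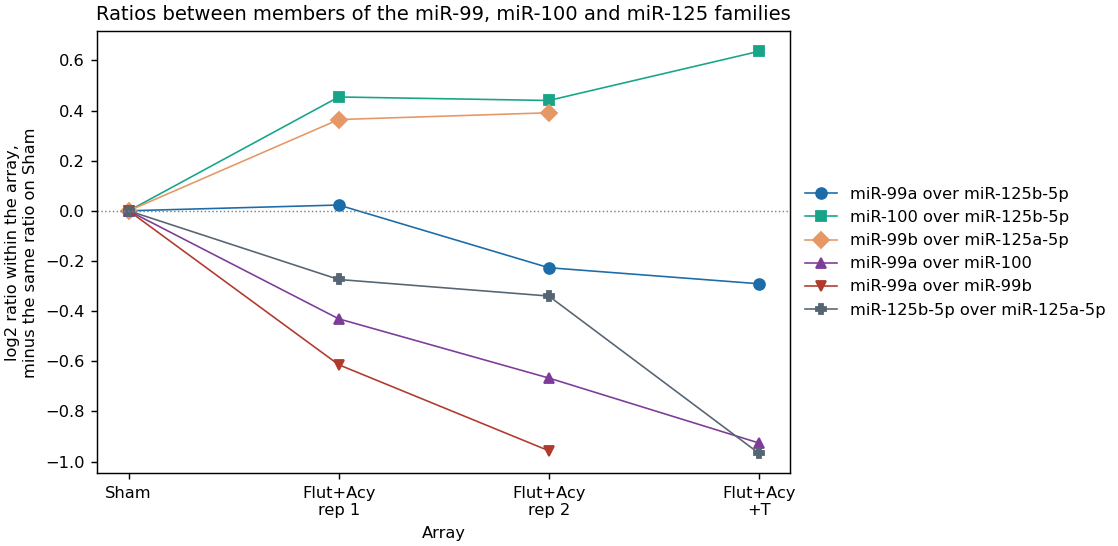
Log2 ratios of 6 pairs of members within each array, from total signals before normalization and after subtracting the ratio on Sham (vertical axis), by array. Lines join the points of 1 pair. miR-99a over miR-100 lay below Sham on all the other arrays and miR-100 over miR-125b-5p above it. In the deposited table both turned on Flut+Acy+T, and in Flut+Acy the latter turned there and with normexp correction.

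The let-7 miRNAs of the same clusters, which restrain growth and repress Lin28, were measured beside the members. Of the 7 names listed for them, 4 are on the array. let-7c, the neighbor of miR-99a, gave total signals of 3856 units on Sham, 5232 and 6276 in the Flut+Acy pair and 8995 on Flut+Acy+T. let-7e, between miR-99b and miR-125a-5p, gave 588.6 units on Sham, 931 and 1079 in the Flut+Acy pair and 1577 on Flut+Acy+T. let-7a gave 2564 units on Sham, 4696 and 5789 in the Flut+Acy pair and 7887 on Flut+Acy+T. They had the members' order of arrays, although let-7a and let-7c are also made from genes outside these clusters.

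After quantile normalization, let-7c (-0.56, limma adjusted p = 0.00926), let-7e (-0.63, limma adjusted p = 0.0424) and let-7a (-0.11, limma adjusted p = 0.0300) were lower in Flut+Acy than in Sham, while all of them were higher without normalization (0.57, 0.77 and 1.02). The opposite strand of the let-7c hairpin, let-7c-1*, was detected on Flut+Acy+T alone, at 343 units. The SD of 1326 units on that array is of single negative-control spots, with none left out, and is not an error of a total signal. Thus 3 of the 4 were called lower in Flut+Acy and none higher, where 28.5% of the miRNAs tested were called lower and 25.5% higher. The call of let-7a was lost with the 75th percentile of miRNAs that every array detected (-0.33) and with summed signal (-0.35). Between Flut+Acy+T and Flut+Acy all 4 were called higher after quantile normalization, where 21.5% of the miRNAs tested were, by 0.56 for let-7c, 0.49 for let-7e and 0.37 for let-7a, but with the 75th percentile over all mouse miRNAs these turned to -0.98, -0.97 and -1.03. The call of let-7c-1* there rests on the floor in Flut+Acy.

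The opposite strands of the members' own hairpins were mostly undetected. Of 8 names listed, 4 are on the array, and miR-125b* and miR-125b-3p were detected on no array. miR-125a-3p, the other strand of the miR-125a hairpin, gave 26.7 units for Sham and 78.2 and 96.4 in the Flut+Acy pair and was not detected on Flut+Acy+T. Its log2 difference between Flut+Acy and Sham was 1.70 before normalization and -0.30 after it (SE 0.04, limma adjusted p = 0.0725), the same pair of signs as miR-125a-5p. miR-99b* was detected on Flut+Acy+T alone, at 959 units, where miR-99b itself was not detected. On that array single negative-control spots, with none left out, had an SD of 1326 units, which is not an error of a total signal. The lowest detected signal of the array, 238 units, was above every miR-99b signal on the other arrays. These flags therefore do not show a change between the strands.

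Among sequence relatives from other loci, miR-351, which has the miR-125 seed, was detected on no array. The miR-10 miRNAs have a related seed, shown for comparison with the miR-100 sequence above.
miR-10a: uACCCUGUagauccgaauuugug
miR-10b: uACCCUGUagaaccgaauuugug
miR-10b gave 646 units on Sham, 1133 and 1340 in the Flut+Acy pair and 2462 on Flut+Acy+T. Its log2 difference between Flut+Acy and Sham was -0.62 after quantile normalization (SE 0.06, limma adjusted p = 0.0485) and 0.93 without. For miR-10a the values were -0.68 (SE 0.15, limma adjusted p = 0.107) and 1.33. Of the 2 relatives tested, 1 was therefore called lower in Flut+Acy after quantile normalization and none higher, where 28.5% of the miRNAs tested were called lower. That call, of miR-10b, was lost with the 75th percentile of miRNAs that every array detected (-0.42) and kept with summed signal (-0.44). Between Flut+Acy+T and Flut+Acy, miR-10a (1.52) and miR-10b (0.62) were called higher, where 21.5% of the miRNAs tested were. With the 75th percentile over all mouse miRNAs miR-10b turned to -0.63 while miR-10a was at 1.02.

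The miRNAs whose normalized pattern over the 4 arrays was most like that of a member were found by the root mean square difference of mean-centered log2 signals, among 75 other miRNAs detected on all arrays. For miR-99a the closest was miR-125a-5p (0.04), then miR-497 (0.07) and miR-574-5p (0.10). For miR-125a-5p they were miR-99a (0.04), miR-497 (0.07) and miR-721 (0.10), and for miR-100 miR-497 (0.11), miR-99a (0.15) and miR-148a (0.16). For miR-125b-5p they were miR-26b (0.06), let-7f (0.08) and miR-199b (0.08), so that no other member was among its closest 3. miR-99b was not detected on all arrays and was not ranked. These distances hold for quantile-normalized values, since on linear scalings miR-99a lay 0.75 below the median log2 difference of the 76 miRNAs between Flut+Acy+T and Sham and miR-125a-5p 0.51 above it.

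Markers of cell types were read on the same arrays. Their summed signals hold positive values only, with negative ones left out. miR-202-3p, a gonadal somatic miRNA, gave 103 units for Sham and 312 and 339 in the Flut+Acy pair and was not detected on Flut+Acy+T, and miR-202-5p was detected on the Flut+Acy arrays alone, where it was called higher than on Sham (limma adjusted p = 0.00436), a call that rests on the floor. Summed signal of 5 germ cell miRNAs, of which 3 were detected on Sham, came to 475 units for Sham and 7081 and 7333 for the Flut+Acy pair. On Flut+Acy+T it came to 2924, with 2 detected and with undetected miR-449a included at 362 units. The 3 were miR-34b-5p (log2 difference between Flut+Acy and Sham after quantile normalization 1.97, limma adjusted p = 0.0623), miR-34c (2.02, limma adjusted p = 0.0223) and miR-449a (1.60, limma adjusted p = 0.0592), and the study itself lists all 3 as androgen-responsive from these arrays. miR-449b and miR-449c were detected on no array. Signals of 5 muscle miRNAs were also read, namely miR-143, miR-145, miR-1, miR-133a and miR-133b. All were detected on Sham and Flut+Acy, with summed signals of 1785, 2580 and 3091 units there. On Flut+Acy+T the sum was 4488, with 3 detected and with undetected miR-145 and miR-133a included. All 5 were called lower in Flut+Acy than in Sham after quantile normalization, by 0.68 to 1.33 on the log2 scale. Of all miRNAs tested, 28.5% were called lower there. Without normalization all 5 were higher. For blood, 3 of the 4 tested were called lower, against the same 28.5% of all miRNAs tested. Summed signals of the 5 listed were 233 units in Sham, 372 and 417 in the Flut+Acy pair and 794 in Flut+Acy+T. None of them was detected on Flut+Acy+T, so that sum holds undetected signal only, and miR-144 was undetected on every array. Endothelial signal, summed over miR-126-3p and miR-126-5p, came to 649 units for Sham, 1986 and 2155 in the Flut+Acy pair and 4013 on Flut+Acy+T, nearly all of it from miR-126-3p. On Flut+Acy+T miR-126-5p gave -65.9 units, so that sum is miR-126-3p alone. After quantile normalization miR-126-3p differed by 0.32 between Flut+Acy and Sham (limma adjusted p = 0.102), and miR-126-5p, undetected on Flut+Acy+T, was called lower (-0.65, limma adjusted p = 0.0325), though higher without normalization. The part of these cell types in the members' differences was not tested.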

How the data were processed

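Per the labels, total RNA of pooled Sertoli cells was labeled with Cy5 and hybridized to 4 single-color Agilent miRNA arrays on 1 slide. The authors deposited the scanner output of Agilent Feature Extraction 9.5.3.1, with intensities on a linear scale (background-subtracted spot signals, raw means and, per miRNA, a total signal with error and detection flag) and no normalization between arrays. They also deposited a table of quantile-normalized intensities, whose spot summary is not given in the sources used here.

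Quantile normalization was applied to the total signals of the 567 mouse miRNAs, leaving out 10 viral miRNAs and control spots. Values below 5.46 units were set to 5.46, and log2 was taken. This floor is the median over the arrays of the lowest normalized value of a detected miRNA. That value was 23.6 on Sham, -12.7 and -21.5 in the Flut+Acy pair and 103.5 on Flut+Acy+T. Detected miRNAs below the floor on the Flut+Acy arrays were thus raised to it. limma 3.58.1 in R 4.3.3 fitted 3 groups over 298 miRNAs, each detected somewhere, with empirical Bayes moderation (prior SD 0.01, prior degrees of freedom 0.46) and Benjamini-Hochberg adjustment. A call was an adjusted p under 0.05. The Flut+Acy pair gave the only residual degree of freedom, so the lone arrays were taken to vary as it does. The number of arrays limits the precision. The fit was also run on simulated data with the same noise on every array and no ties. These arrays are unlike that, so the run does not bear on the p-values here. Tables used Python 3.11.15, NumPy 2.4.6 and pandas 2.3.3, and plots matplotlib 3.10.9.

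The fold given for miR-99b set its normalized signal on Sham against the lowest detected one on Flut+Acy+T, which is not a detection limit. The named miRNAs were the 5 members, their opposite strands, let-7 of the same clusters, relatives, the 3 closest in pattern and cell type markers. Members, lists and tests were chosen with earlier results of these data known. Array names were matched to the 5p strands of RefSeq (GRCm38.p6) by name, with distances between neighbors equal in both sources. Alternatives were other scalings, spot summaries, background correction (normexp, offset 50), detection filters, floors, the deposited intensities, t tests without moderation and leaving out a Flut+Acy array. Those t tests compared pairs of groups in the same model. The methods name a single-factor analysis of variance with Tukey comparisons, which was not run in that form. The RT-PCR, developmental and target experiments are not analysed here.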

Additional observations from a re-analysis of the deposited data

How the results depend on the processing

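No paired analysis was possible because only Flut+Acy has numbered replicates. Over the 3 comparisons, the number of members called stayed within 1.5 times under 21 alternatives and moved further under 13. A count does not give the direction: without normalization the calls were 4 higher between Flut+Acy and Sham, and 4 higher and 1 lower between Flut+Acy+T and Sham, where 73.2% and 60.4% of all miRNAs tested were called higher. Between Flut+Acy and Sham, 3 calls became 1 with scaling to the 75th percentile of miRNAs that every array detected and 1 with summed signal. They became 0 in the deposited table (limma, 3 members at an unadjusted p under 0.05, with 29.2% of all miRNAs called). With the t tests without moderation they became 0 (1 at an unadjusted p under 0.05). Those t tests called 0 of the 243 miRNAs with a p in any comparison (89, 147 and 112 unadjusted). Between Flut+Acy+T and Flut+Acy, 3 calls became 1 with that percentile and 0 in the deposited table (limma, 2 unadjusted, with 63.1% of all miRNAs called). They became 0 with the t tests without moderation (1 unadjusted). Between Flut+Acy+T and Sham, 4 calls became 2 with that percentile, summed signal, only miRNAs detected on all 4 arrays, no detection filter and the deposited table. They became 0 with the t tests without moderation (1 unadjusted). In each comparison of these t tests 2 members, miR-99a and miR-100, had a spread of 0 and no p.

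Without normalization the Flut+Acy to Sham differences turned to 0.76 (miR-99a), 1.54 (miR-99b), 1.31 (miR-100), 1.17 (miR-125a-5p) and 0.86 (miR-125b-5p), and those of Flut+Acy+T to Sham to 1.16 (miR-99a), 2.09 (miR-100) and 2.42 (miR-125a-5p). With the percentile of miRNAs that every array detected, Flut+Acy to Sham turned to 0.19 for miR-99b (summed signal, 0.17), and Flut+Acy+T to Sham to 0.22 for miR-100 (summed signal, 0.29) and 0.55 for miR-125a-5p (summed signal, 0.62). Flut+Acy+T to Flut+Acy turned for miR-99a to -0.12 with this percentile, -1.22 with the percentile over all mouse miRNAs, -0.0198 with summed signal and -0.48 in the deposited table, for miR-100 to 0.26, 0.36 (summed signal) and 0.79 (no normalization), and with the percentile over all mouse miRNAs to -0.37 for miR-125a-5p and -1.03 for miR-125b-5p. Ratio differences from Sham to Flut+Acy turned with normexp and in the deposited table for miR-100 over miR-125b-5p (-0.081 and -0.14), miR-99a over miR-99b (0.022 and 0.12) and miR-125b-5p over miR-125a-5p (0.21 and 0.39), and with normexp for miR-99b over miR-125a-5p (-0.19). In the deposited table, the differences of Flut+Acy+T from Flut+Acy and from Sham turned for miR-100 over miR-125b-5p (-0.995 and -1.13), miR-99a over miR-100 (0.17 and 0.16) and miR-125b-5p over miR-125a-5p (0.26 and 0.65). The cause was not tested. Scaling to summed signal, which used positive signals only, and ratios from a single probe were chosen after seeing the data.

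Leaving out a Flut+Acy array leaves no residual degree of freedom, so these are values without a test. The Flut+Acy to Sham difference was then -0.43 to -0.22 for miR-125b-5p, -0.53 to -0.37 for miR-99b and -0.80 to -0.74 for miR-125a-5p, and for miR-99a and miR-100 it kept its value. Signal over background limits what Flut+Acy+T can show of miR-99b, miR-100 and miR-125a-5p.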
